A study of Mus musculus with 2 samples.

Results

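*Gpnmb*-high lipid-associated macrophages were taken from the infarcted mouse heart as droplet barcodes in which *Gpnmb*, a transmembrane glycoprotein of lysosomes and phagosomes, made up at least 0.05% of the UMIs (unique molecular identifiers, each counting 1 captured RNA molecule). A barcode also needed at least 5000 UMIs, at most 10% mitochondrial UMIs and at least 0.4% *Malat1*, and was left out when its cell-cycle genes reached 0.05%, its interferon-stimulated genes 0.1% or its neutrophil genes 0.15% of UMIs. Members were thus chosen by their measured *Gpnmb* share and by the levels of the genes used to leave barcodes out. The rule took 1774 of 18770 deposited barcodes, 250 of them in the library labelled CD40 KO and 1524 in the WT library. Both libraries held mononuclear macrophages sorted as positive for CD45, CD11b and CD64 from the infarct and border zone at day 3 after myocardial infarction, 1 from CD40 KO mice and the other from WT mice. CD40 is a costimulatory receptor of the TNF receptor family. The knockout allele, its strain, the age of the mice and the number of mice per library were not given in the sources used here. With 1 library per genotype no difference between libraries could be tested. All intervals below are 95% intervals that cover counting error only.

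Lipid-associated macrophages are cells that have taken up dying cells and lipid. They are known for the receptor TREM2, fatty acid binding proteins, a large lysosomal compartment and secreted osteopontin, and similar cells have been described in fat, atherosclerotic plaques and injured heart. In the infarct, recruited monocytes become macrophages that clear dead cardiomyocytes and neutrophils and release growth factors and matrix proteins.

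The deposited matrices held 90057108 UMIs in 8146 barcodes labelled CD40 KO, against 139343516 UMIs in 10624 barcodes of the WT library. Of these, 2692 and 4856 barcodes passed the depth, mitochondrial and *Malat1* limits in the KO-labelled and the WT library. The libraries shared 23 barcode sequences, of which 1 belonged to a *Gpnmb*-high barcode of the KO-labelled library and 3 to those of WT. *Cd40* itself was read at 13.9 CPM (UMIs of a gene scaled to a common total for each set of barcodes) in the *Gpnmb*-high barcodes labelled CD40 KO and at 14.8 CPM in those of WT, a log2 ratio of −0.09 (−0.45 to 0.26). A 3′ tag need not lie in the deleted part of a gene, so this level checks nothing about the allele. *Gpnmb*-high barcodes had a median of 19606 UMIs and 4404 genes in the library labelled CD40 KO, and of 15774 UMIs and 3952.5 genes in WT.

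Promoter sequences are shown for 3 of the genes that stood highest in *Gpnmb*-high barcodes: the defining gene, a lysosomal protease and a secreted elastase. They are RefSeq sequences on GRCm38.p6, the patched release of the assembly that mm10 names, and run from 250 bases before an annotated start to 50 after it. Capitals mark CACGTG, the core of the site bound by MiT/TFE factors that control lysosomal genes, or TGANTCA, the AP-1 site, and both strands were read. The windows are *Gpnmb* at chr6:49036268-49036567 on the plus strand, *Ctsd* (cathepsin D) at chr7:142387778-142388077 on the minus strand and *Mmp12* (macrophage elastase) at chr9:7347124-7347423 on the plus strand.
Gpnmb: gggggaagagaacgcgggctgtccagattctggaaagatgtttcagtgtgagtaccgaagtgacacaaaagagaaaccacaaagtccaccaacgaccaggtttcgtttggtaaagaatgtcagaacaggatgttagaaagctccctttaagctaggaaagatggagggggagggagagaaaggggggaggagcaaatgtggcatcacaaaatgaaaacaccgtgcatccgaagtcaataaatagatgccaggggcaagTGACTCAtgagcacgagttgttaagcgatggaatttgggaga
Ctsd: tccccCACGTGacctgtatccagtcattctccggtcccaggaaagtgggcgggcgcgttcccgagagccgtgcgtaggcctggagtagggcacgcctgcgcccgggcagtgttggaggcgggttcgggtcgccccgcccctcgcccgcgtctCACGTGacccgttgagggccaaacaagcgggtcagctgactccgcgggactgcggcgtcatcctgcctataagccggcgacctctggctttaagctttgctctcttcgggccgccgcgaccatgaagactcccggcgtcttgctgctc
Mmp12: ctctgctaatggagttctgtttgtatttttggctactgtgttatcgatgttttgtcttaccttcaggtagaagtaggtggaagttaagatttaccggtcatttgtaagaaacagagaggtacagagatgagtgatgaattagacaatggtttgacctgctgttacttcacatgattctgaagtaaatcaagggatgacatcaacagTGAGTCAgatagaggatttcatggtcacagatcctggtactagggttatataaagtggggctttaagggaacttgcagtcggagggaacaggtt
Counting the start base as 0, TGANTCA began at 8 in *Gpnmb* and at −44 in *Mmp12*, and CACGTG began at −245 and −98 in *Ctsd*. Of the 15 genes highest over *Gpnmb*-low macrophages, 11 had a window in the table, and *Fabp4*, *Fabp5*, *Lpl* and *Slc6a8* had none. CACGTG was in windows of 3 of them (*Ctsd*, *Ctsl* and *Gyg*) and in 7.15% of all 32851 windows. TGANTCA was also in windows of 3 (*Gpnmb*, *Mmp12* and *Psap*) and in 7.81% of all windows. The counts are of genes with a match in any window and the percentages are of windows, so they are not directly comparable. Of the genes lowest over *Gpnmb*-low macrophages 10 had a window, of which 1 held CACGTG and 1 TGANTCA. Several genes had more than 1 window: *Mmp12* and *Psap* each had another one in which none of the motifs was found, and the *Mmp12* window shown is the one with the match. A match describes the letters only. The direct repeat of nuclear receptor half-sites with a single base between them was in none of the 11 genes and in 0.0396% of all windows. With so rare a motif, its absence from 11 genes says nothing about them.

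*Gpnmb*-high barcodes made up 9.29% (8.22 to 10.5) of the barcodes past the limits in the library labelled CD40 KO and 31.4% (30.1 to 32.7) in WT. Counted against *Gpnmb*-low macrophages, which met the same limits and carried macrophage genes but less than 0.05% *Gpnmb*, they were 13.5% (12.0 to 15.1) in the KO-labelled library and 43.3% (41.6 to 44.9) in WT. Among barcodes past the limits and not left out, the share was 11.1% in the library labelled CD40 KO and 37.9% in WT. Counted among these, it was lower in the KO-labelled library at every depth. Among barcodes of 5000 to 9999 UMIs it was 9.26% in the library labelled CD40 KO and 23.8% in WT, at 10000 to 19999 UMIs 8.60% in the KO-labelled library and 40.8% in WT, and at 20000 or more 15.4% in the KO-labelled and 49.3% in the WT library. After every barcode was thinned at random to 5000 UMIs, the shares of all barcodes past the limits were 10.3% labelled CD40 KO and 30.4% in WT. Each share describes 1 library, and differences between mice or sorts cannot be told apart from the genotype.

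**Figure D1:**
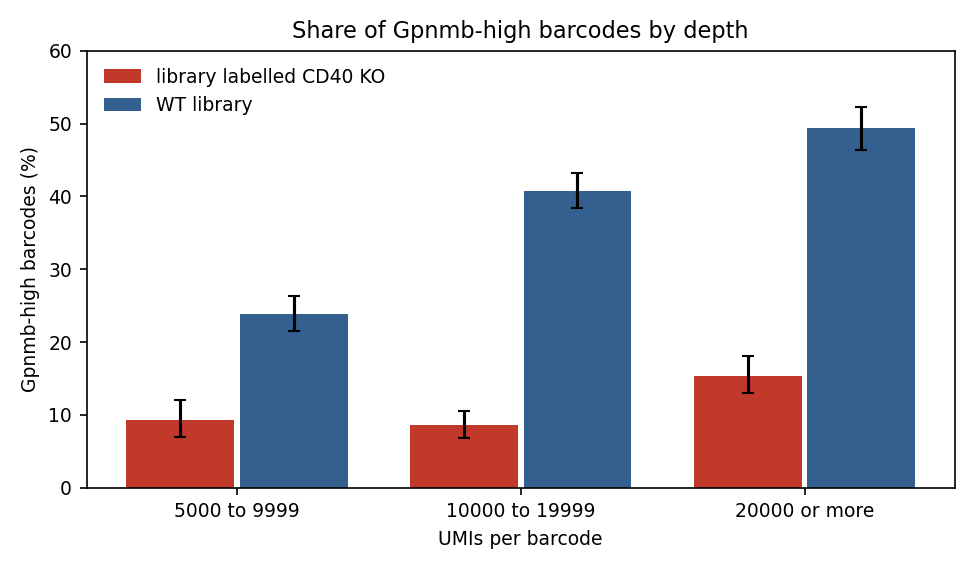
Share of *Gpnmb*-high barcodes (vertical axis, percent) among barcodes past the limits and not left out, in 3 bands of UMIs per barcode (horizontal axis), for the library labelled CD40 KO and the WT library; bars carry exact binomial 95% intervals. The KO-labelled bars lie between 8.60 and 15.4% and the WT bars between 23.8 and 49.3%.

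The *Gpnmb* level, which chose these barcodes, is given as a description. Its median was 0.080% of UMIs in the library labelled CD40 KO and 0.0976% in WT, with highest values of 0.500% in the KO-labelled library and 0.513% in WT. In the library labelled CD40 KO 65.6% of the *Gpnmb*-high barcodes lay between 0.05 and 0.1%, 28.0% between 0.1 and 0.2% and 6.40% at 0.2% or more; in WT the shares were 51.4%, 37.8% and 10.8%. Just inside the limit, between 0.050 and 0.055%, stood 24 barcodes labelled CD40 KO and 97 of WT. Just outside it, between 0.045 and 0.050%, stood 36 labelled CD40 KO and 96 of WT. *Fabp5* read 5431 CPM just inside and 2994 CPM just outside in the library labelled CD40 KO, and 6145 CPM just inside and 5448 CPM just outside in WT.

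The markers named with the label are given as a description. The rule used none of them apart from *Gpnmb*. Label and markers were chosen with earlier results of these data known, so their levels are no independent check. *Spp1*, which encodes the secreted matrix protein osteopontin, was at 9632 CPM in *Gpnmb*-high against 3902 CPM in *Gpnmb*-low macrophages of the library labelled CD40 KO, and at 13761 against 5818 CPM in WT. *Fabp5*, a cytosolic fatty acid carrier, was at 5640 against 1531 CPM in the KO-labelled library and at 9610 against 3327 CPM in WT. *Lpl*, the lipase that frees fatty acids from triglycerides, read 510 against 126 CPM in the library labelled CD40 KO and 748 against 288 CPM in WT. All 3 were higher in *Gpnmb*-high barcodes by more than 2-fold in both libraries. *Igf1*, a growth factor for muscle and heart, read 182 against 63.8 CPM in the KO-labelled library and 252 against 141 CPM in WT. The 8 macrophage markers summed to 5350 CPM in *Gpnmb*-high barcodes labelled CD40 KO and 5808 CPM in those of WT. The rule set no minimum for them, and 18 of 250 *Gpnmb*-high barcodes labelled CD40 KO (7.20%) and 55 of 1524 in WT (3.61%) held less than 0.1% macrophage genes.

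Single barcodes varied widely. *Spp1* had a median of 0.611% and a highest value of 4.58% of UMIs in the 250 barcodes labelled CD40 KO, and a median of 0.9995% and a highest value of 13.8% in the 1524 of WT. *Mmp12* was held by few of them: the 25 barcodes with most *Mmp12* carried 77.0% of its UMIs in the KO-labelled library, and the top 153 carried 79.1% in WT. After thinning to 2000 UMIs *Lpl* had a UMI in 38.8% of *Gpnmb*-high barcodes labelled CD40 KO and in 48.6% of those in WT (72.0% labelled CD40 KO and 80.0% in WT before thinning, at the median depths given above). *Igf1* had one in 24.4% labelled CD40 KO and 30.6% in WT (63.2% labelled CD40 KO and 69.2% in WT before). Neutrophil-like barcodes, which should lack both genes, served as background with medians of 3211 UMIs in the KO-labelled library and 2987 UMIs in WT. There *Lpl* had a thinned UMI in 0 of 16 barcodes, which allows a share of up to 18.8% (3 of 16; the exact 95% upper limit is 20.6%), in the library labelled CD40 KO and in 1.64% of 61 in WT. *Igf1* had one there in 1 of 16 barcodes labelled CD40 KO (6.25%, 0.158 to 30.2), an interval that covers its share in *Gpnmb*-high barcodes, so in the KO-labelled library that share was not shown to be above background. In WT it had one in 0 of 61, which allows up to 4.92% (3 of 61, where the exact 95% upper limit is 5.87%). *Spp1* was found in 75.0% of these neutrophil-like barcodes labelled CD40 KO and in 75.4% of those in WT. Its share is therefore no measure of expression. Summed over all neutrophil-like barcodes of 1000 UMIs or more, *Spp1* was at 1122 CPM in the KO-labelled library and 836 CPM in WT.

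Transcripts of other cell types were low in *Gpnmb*-high barcodes. The 6 T and NK markers were all at 0 in the library labelled CD40 KO and summed to 0.434 CPM in WT. Endothelial markers summed to 9.02 CPM in the KO-labelled library and 19.0 CPM in WT, and cardiomyocyte markers to 7.81 CPM in the KO-labelled library and 10.7 CPM in WT, with *Myh6* at 0 in the KO-labelled library. Fibroblast markers summed to 36.3 CPM labelled CD40 KO and 34.5 CPM in WT, with 1 WT barcode at 1.29% of its UMIs. Neutrophil markers, limited by the rule, summed to 188 CPM in the library labelled CD40 KO and 226 CPM in WT. Ribosomal protein genes took 10.9% of UMIs in *Gpnmb*-high barcodes labelled CD40 KO and 8.97% in WT. The part of these differences in the results was not tested.

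Within each library, *Gpnmb*-high barcodes were set against *Gpnmb*-low macrophages to describe what came with high *Gpnmb*. Genes that averaged 10 CPM or more were measured, and a 1.5-fold difference was counted. In the library labelled CD40 KO 183 of 7519 genes (2.43%) were higher and 306 (4.07%) lower, and in WT 82 of 7441 (1.1%) were higher and 164 (2.2%) lower. Of 7252 genes measured in both, 65 (0.896%) were higher and 114 (1.57%) lower in both libraries. No gene was past 1.5-fold in opposite directions. With every barcode thinned to 5000 UMIs 338 were higher and 451 lower in the KO-labelled library, and 136 higher and 264 lower in WT.

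The lipid-associated macrophage list, chosen with earlier results of these data known, had 27 measured genes. In the KO-labelled library 19 of them were higher and none lower, with a median log2 ratio of 0.89, against −0.05 over all genes. In WT 15 were higher and 1 was lower, with a median of 0.64, against −0.05 over all genes. The gene lower in WT was *Axl*, a receptor for bridged dying cells, at 22.0 CPM in *Gpnmb*-high and 39.3 CPM in *Gpnmb*-low macrophages. *Trem2*, the lipid-sensing receptor, read 619 against 330 CPM in the library labelled CD40 KO and 737 against 500 CPM in WT, a log2 ratio of 0.91 (0.85 to 0.96) in the KO-labelled library and 0.56 (0.53 to 0.59), just under 1.5-fold, in WT. *Apoe*, the lipid-carrying apolipoprotein, stood apart between libraries: 6751 against 3866 CPM in the KO-labelled library and 7772 against 6780 CPM in WT.

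**Figure D2:**
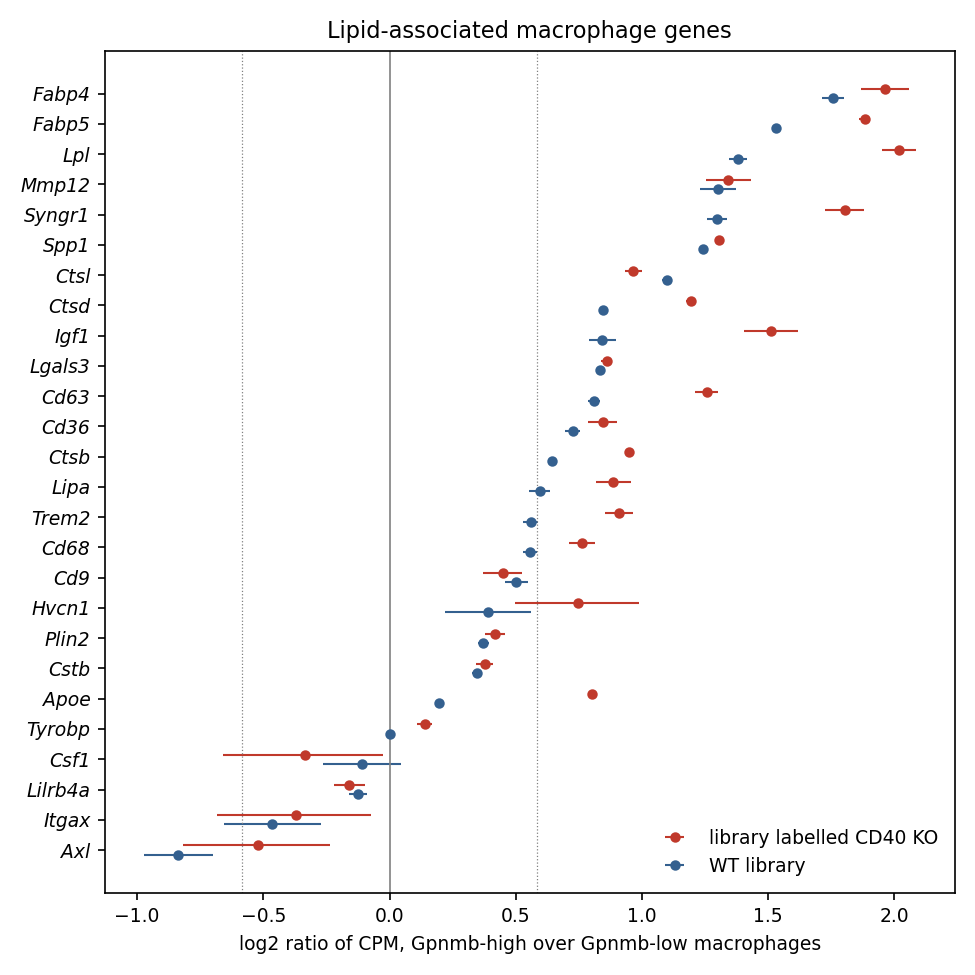
Log2 ratio of CPM in *Gpnmb*-high over *Gpnmb*-low macrophages (horizontal axis) for 26 genes of the lipid-associated macrophage list without *Gpnmb*, with 95% intervals, in the library labelled CD40 KO and the WT library; dotted lines mark 1.5-fold. *Fabp4*, *Fabp5* and *Lpl* lie at the top in both libraries and *Axl* at the bottom.

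Lipid carriers were among the genes that were higher. At 50 CPM or more *Fabp4*, another fatty acid binding protein, ranked next after *Gpnmb* by the smaller ratio of both libraries. It read 261 against 67.0 CPM in the library labelled CD40 KO (log2 1.96, 1.87 to 2.06) and 596 against 176 CPM in WT (1.76, 1.71 to 1.80). *Cd36*, a fatty acid and oxidised lipid receptor, read 561 against 312 CPM in the KO-labelled library and 715 against 432 CPM in WT. Of all measured genes 2.43% were higher and 4.07% lower labelled CD40 KO, and 1.1% higher and 2.2% lower in WT. Of 16 measured genes of fatty acid uptake and storage, 7 were higher labelled CD40 KO and 6 in WT, and none was lower. The 20 measured cholesterol genes had a median log2 ratio of 0.11 labelled CD40 KO and −0.01 in WT, against −0.05 over all genes in each library. Of these 20 genes 5 were higher and 1 was lower in the library labelled CD40 KO, and 2 were higher in WT. *Nr1h3*, the sterol-sensing receptor LXR alpha, was among the higher ones at 38.7 against 22.6 CPM in the KO-labelled library and 43.5 against 28.3 CPM in WT.

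A minority of lysosomal genes passed 1.5-fold, nearly all of them upward. Of all measured genes 2.43% were higher and 4.07% lower labelled CD40 KO, and 1.1% higher and 2.2% lower in WT. Among cathepsins and related proteases 5 of 13 were higher labelled CD40 KO and 4 of 13 in WT, where *Ctsc* was lower. *Ctsd*, whose window is printed above with its CACGTG matches, read 5300 against 2316 CPM in the KO-labelled library and 5720 against 3183 CPM in WT. *Ctsl*, an endosomal cysteine protease, read 1587 against 812 CPM labelled CD40 KO and 2714 against 1268 CPM in WT. *Psap*, the precursor of the saposins that present lipids to hydrolases, read 4536 against 2070 CPM in the library labelled CD40 KO and 5517 against 2941 CPM in WT. Of 22 lysosomal hydrolases 7 were higher labelled CD40 KO and 3 in WT, with none lower. Of 24 genes of the lysosomal membrane and proton pump 4 were higher labelled CD40 KO and 2 in WT, with none lower. *Atp6v0d2*, a proton pump subunit of macrophages and osteoclasts, had the highest ratio of these at a low level, 22.6 against 5.94 CPM in the KO-labelled library and 51.0 against 8.33 CPM in WT.

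Among the genes that were lower were most measured genes of the MHC class II and monocyte lists and a minority of the inflammatory ones. Of all measured genes 4.07% were lower labelled CD40 KO and 2.2% in WT. The 4 genes *H2-Ab1*, *H2-Aa*, *H2-Eb1* and *Cd74* of the MHC class II pathway were lower, and 7 of 9 genes of that list were lower in each library. *H2-Ab1*, a class II beta chain, read 160 against 507 CPM in the library labelled CD40 KO (log2 −1.67, −1.76 to −1.57) and 225 against 608 CPM in WT (−1.43, −1.47 to −1.39). *Ccr2*, the chemokine receptor of recruited monocytes, read 82.6 against 202 CPM labelled CD40 KO and 114 against 244 CPM in WT. The monocyte list had 12 of 17 genes lower in the KO-labelled library and 9 of 16 in WT, with none higher. Of the inflammatory cytokines and mediators 4 of 15 were lower labelled CD40 KO and 3 of 14 in WT, with none higher. *Il1b*, the inflammatory cytokine, read 548 against 1227 CPM in the library labelled CD40 KO and 405 against 734 CPM in WT. Barcodes with at least 0.1% of the monocyte genes *Ly6c2*, *Plac8* and *Chil3* were 21.6% of *Gpnmb*-high and 43.8% of *Gpnmb*-low macrophages labelled CD40 KO, and 10.6% of *Gpnmb*-high and 24.3% of *Gpnmb*-low macrophages in WT.

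Receptors and bridging proteins of efferocytosis, the uptake of dying cells, showed no common direction. Of 25 measured in the library labelled CD40 KO 5 were higher and 2 lower, with a median log2 of 0.14, and of 26 in WT 2 were higher and 2 lower, with a median of 0.00. *Mertk*, a receptor tyrosine kinase for dying cells, read 73.4 against 45.5 CPM in the KO-labelled library and 70.8 against 58.0 CPM in WT. *Mfge8*, a bridge between phosphatidylserine and integrins, read 13.9 against 5.41 CPM labelled CD40 KO and 24.3 against 5.27 CPM in WT. *Olr1*, an oxidised lipoprotein receptor, was lower, at 42.3 against 79.3 CPM in the library labelled CD40 KO and 52.2 against 84.6 CPM in WT. None of 31 genes of engulfment and the phagosome passed 1.5-fold in either library. Over all genes 2.43% were higher and 4.07% lower labelled CD40 KO, and 1.1% higher and 2.2% lower in WT. For 31 genes a count of 0 is near those shares.

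Many of these genes also followed the *Gpnmb* level among the *Gpnmb*-high barcodes. From the band of 0.05 to 0.1% through 0.1 to 0.2% to 0.2% or more, *Ctsl* read 1320, 1772 and 3629 CPM in the KO-labelled library and 1988, 3118 and 5412 CPM in WT. *Spp1* read 7988, 11557 and 18612 CPM labelled CD40 KO and 10708, 15998 and 23104 CPM in WT. *F7*, coagulation factor VII, read 50.2, 81.5 and 199 CPM in the KO-labelled library and 54.9, 87.9 and 130 CPM in WT. All 3 climbed through the bands in both libraries. *Il1b* went the other way, at 579, 557 and 173 CPM labelled CD40 KO and 494, 339 and 138 CPM in WT. The top band of the KO-labelled library held 16 barcodes.

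**Figure D3:**
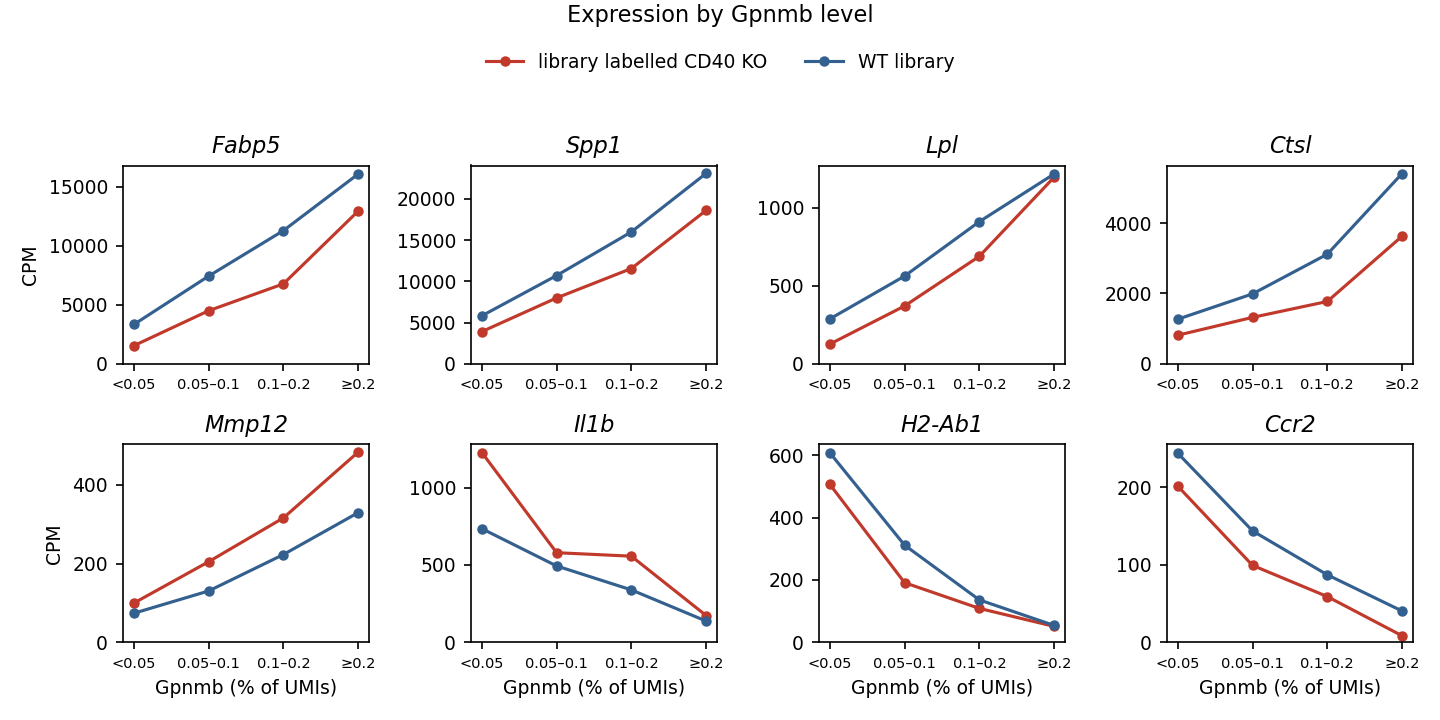
CPM (vertical axes) of 8 genes in *Gpnmb*-low macrophages and in 3 bands of *Gpnmb*-high barcodes by *Gpnmb* share of UMIs (horizontal axes), for the library labelled CD40 KO and the WT library. *Fabp5*, *Spp1*, *Lpl*, *Ctsl* and *Mmp12* climb with *Gpnmb* in both libraries, and *Il1b*, *H2-Ab1* and *Ccr2* decline.

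Set against WT, the *Gpnmb*-high barcodes labelled CD40 KO had 365 of 7454 genes (4.9%) higher and 179 (2.4%) lower by 1.5-fold, with a median log2 ratio of 0.01 over all genes. With every barcode thinned to 5000 UMIs 610 were higher and 401 lower, and with equal weights for depth bands 519 were higher and 320 lower. Of the 27 lipid-associated macrophage genes none was higher and 3 were lower, with a median of −0.23. *Fabp4* was lower by −1.19 (−1.27 to −1.11) on the log2 scale, *Fabp5* by −0.77 (−0.79 to −0.75) and *Ctsl* by −0.77 (−0.81 to −0.74), from the levels given above. With equal weight for each *Gpnmb* band the *Fabp5* ratio was −0.52, under 1.5-fold. *Trem2* (−0.25), *Apoe* (−0.20) and *Cd68* (−0.12) differed less. None of 23 lysosomal hydrolases and none of 22 lipid-sensing and MiT/TFE transcription factors passed 1.5-fold, with medians of 0.04 and 0.00. Among all measured genes 4.9% were higher and 2.4% lower, so for lists this short a count of 0 is near those shares.

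Metallothioneins were among the highest ratios. *Mt2*, a metal-binding protein, read 124 CPM in *Gpnmb*-high barcodes labelled CD40 KO and 30.0 CPM in WT (log2 2.05, 1.90 to 2.19), and *Mt1* read 800 CPM labelled CD40 KO and 249 CPM in WT. Of the 16 measured metallothionein and antioxidant genes 6 were higher and none lower, against 4.9% higher and 2.4% lower over all genes. *Cxcl3*, a neutrophil-attracting chemokine, read 382 CPM in the library labelled CD40 KO and 110 CPM in WT. *Ptgs2*, the inducible cyclooxygenase, read 224 CPM labelled CD40 KO and 94.5 CPM in WT. In contrast *Tnf* was at 120 CPM in the KO-labelled library and 217 CPM in WT, and *Ccl3* at 192 CPM in the KO-labelled library and 342 CPM in WT. The *Tnf* ratio of −0.85 was −0.44 with equal weights for depth bands.

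Growth factor genes were higher in part. Of 18 growth factor and repair genes 6 were higher and none lower, against 4.9% higher and 2.4% lower over all genes. This was not particular to growth factors. In other lists 8 of 16 monocyte genes and 11 of 43 oxidative phosphorylation genes were higher, with none lower. Of 24 matrix and matrix protease genes 8 were higher and 1 was lower. *Inhba*, the activin A subunit, read 22.9 CPM labelled CD40 KO and 5.51 CPM in WT (2.06, 1.71 to 2.40). Its ratio was 1.43 in *Gpnmb*-low macrophages. *Vegfa*, the endothelial growth factor, read 216 CPM in the library labelled CD40 KO and 84.7 CPM in WT (1.35, 1.25 to 1.45). All 9 genes of a *Met*-positive macrophage list, drawn up from earlier results of these libraries and so not independent, were higher, with a median of 0.99. *Met* itself, the hepatocyte growth factor receptor, read 116 CPM in the KO-labelled library and 58.8 CPM in WT. Barcodes with at least 0.02% *Met* were 18.0% of the *Gpnmb*-high barcodes labelled CD40 KO and 8.14% of those in WT. Among *Gpnmb*-low macrophages such barcodes were more frequent, at 25.3% labelled CD40 KO and 13.1% in WT.

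Efferocytosis and CD40 pathway genes were set beside all 7454 measured genes, of which 4.9% were higher and 2.4% lower between the libraries. With so few genes the counts below are close to these shares and set neither list apart. Of 26 efferocytosis genes 2 were higher, *Thbs1* (0.93) and *Cd14* (0.68), and 1 lower, with a median of −0.11. The lower gene, *Mfge8*, had a ratio of −0.81 (−1.16 to −0.47), which was −0.31 without the *Malat1* minimum. Of 22 genes of CD40 signalling 1 was higher, the NF-kB inhibitor *Nfkbie*, at 74.3 CPM labelled CD40 KO and 43.2 CPM in WT, and none was lower. *H2-Aa*, a class II alpha chain, read 187 CPM in the library labelled CD40 KO and 348 CPM in WT, a ratio of −0.90 that was −0.08 with equal weights for depth bands.

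**Figure D4:**
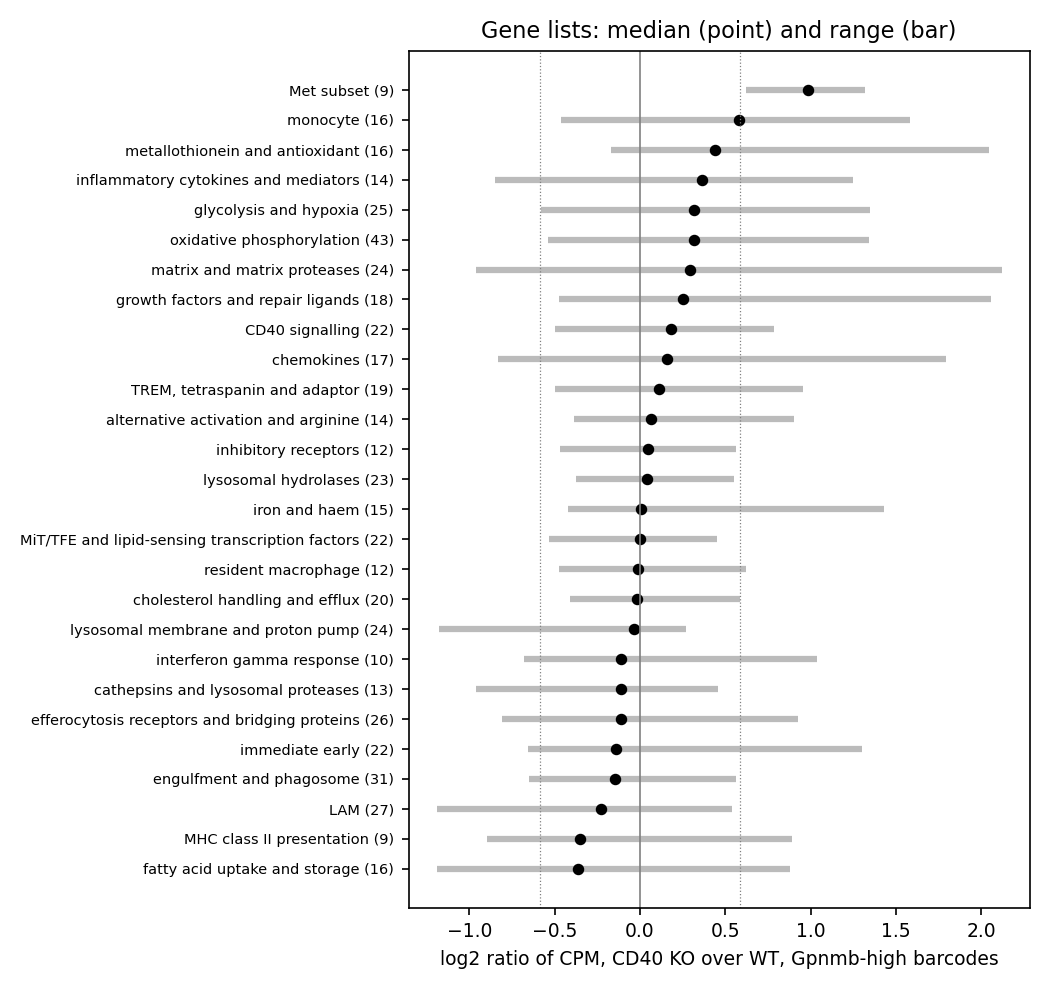
Median (point) and range (bar) of the log2 ratio of CPM, library labelled CD40 KO over WT, in *Gpnmb*-high barcodes (horizontal axis) for 27 gene lists with the number of measured genes in brackets; dotted lines mark 1.5-fold. The *Met*-positive list has the highest median, 0.99, and fatty acid uptake and storage the lowest, −0.37.

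Several of the largest library ratios were of like size in *Gpnmb*-low macrophages. *Mt2* had a ratio of 2.05 in *Gpnmb*-high and 2.42 in *Gpnmb*-low macrophages, *Cxcl3* 1.79 and 1.77, *Vegfa* 1.35 and 1.36, *Arf5* (a small GTPase) −1.52 and −1.45, and *Fabp4* −1.19 and −1.40. Of 5601 genes at 20 CPM or more in both populations, 13 had a ratio higher by 1.5-fold in *Gpnmb*-high than in *Gpnmb*-low macrophages and 6 a lower one. *Igf1* and *Lpl* were among the 13, with ratios of −0.47 and −0.55 in *Gpnmb*-high and −1.14 and −1.19 in *Gpnmb*-low macrophages. *Gpnmb* itself, which chose the barcodes, likewise had a ratio of −0.15 in *Gpnmb*-high and −0.63 in *Gpnmb*-low macrophages. How far the choice by *Gpnmb* set the gap between the populations for *Igf1* and *Lpl* was not tested.

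*Slc40a1*, the iron exporter ferroportin, had the widest such gap. It read 81.2 CPM labelled CD40 KO and 30.2 CPM in WT among *Gpnmb*-high barcodes (1.43, 1.26 to 1.59), and 23.0 CPM labelled CD40 KO and 24.6 CPM in WT among *Gpnmb*-low macrophages (−0.10). Few barcodes carried it: the top 25 held 91.2% of its UMIs in the library labelled CD40 KO, the top 153 held 92.0% in WT, and 1 barcode labelled CD40 KO held 13.7%. After thinning to 2000 UMIs it had a UMI in 7.20% of *Gpnmb*-high barcodes labelled CD40 KO and 4.92% in WT (20.8% labelled CD40 KO and 13.9% in WT before). Among neutrophil-like barcodes it had a thinned UMI in 0 of 16 labelled CD40 KO, which allows up to 18.8% as above, and in 8.20% of 61 in WT, so its share was not shown to be above background. Over neutrophil-like barcodes of 1000 UMIs or more *Slc40a1* stood at 82.5 CPM labelled CD40 KO and 48.5 CPM in WT. These levels were no lower than in the *Gpnmb*-high barcodes.

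**Figure D5:**
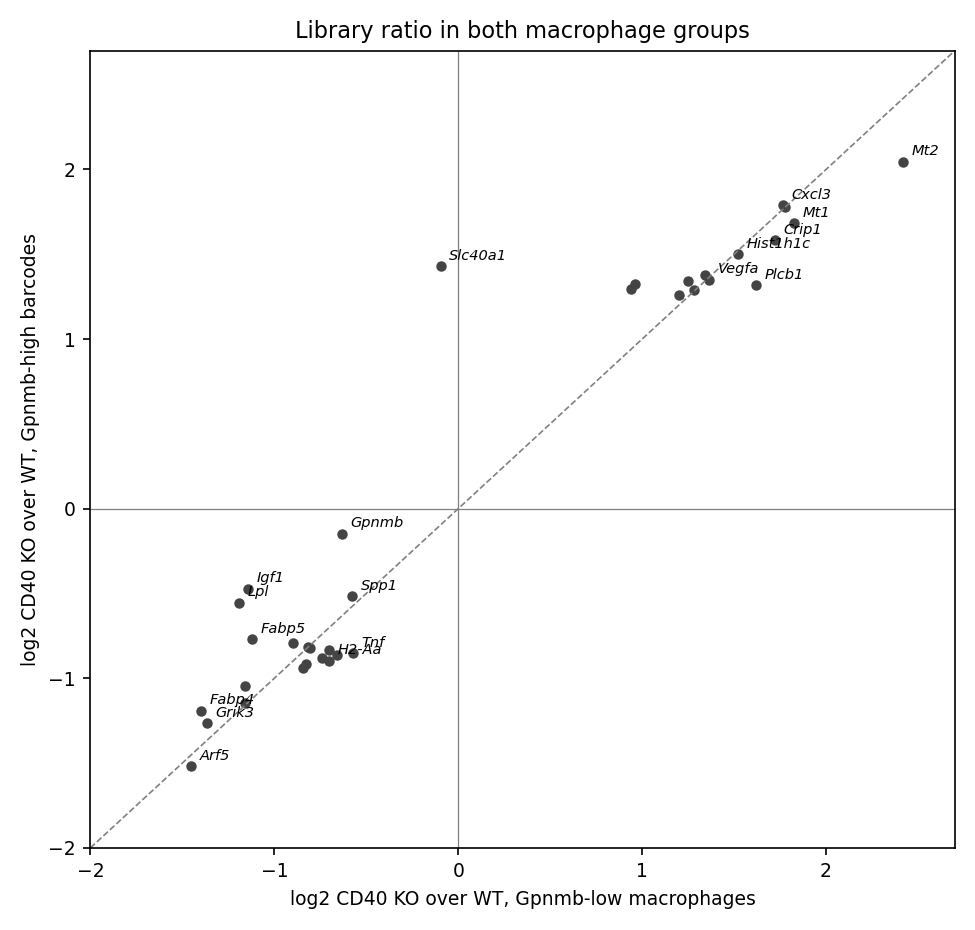
Log2 ratio of CPM, library labelled CD40 KO over WT, in *Gpnmb*-high barcodes (vertical axis) against the same ratio in *Gpnmb*-low macrophages (horizontal axis) for the 15 highest and 15 lowest genes and the 5 markers; the dashed line marks equal ratios. *Slc40a1* lies far above the line, at 1.43 against −0.10.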

How the data were processed

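The deposited values were raw UMI counts, which Cell Ranger 7.0.1 wrote according to the file headers. STAR and mm10 are named in the submitters' processing notes. Libraries used a Chromium 3′ kit, per the labels' protocols. The handling of intronic reads is not stated there. From these counts, UMIs were summed over barcodes and scaled to CPM, with exact Poisson intervals. Shares had exact binomial intervals, and log2 ratios exact conditional ones. No test was made. Python 3.11.15, scipy 1.17.1, pandas 2.3.3 and scanpy 1.11.5 were used, and ratios were tested on simulated data.

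The members and the gene lists were chosen with earlier results of these data known. *Gpnmb*-low macrophages had at least 0.1% macrophage genes, under 0.1% fibroblast genes and under 0.05% each of endothelial, lymphocyte and dendritic genes. Neutrophil-like barcodes had at least 3% neutrophil genes and under 0.1% macrophage genes, and met the mitochondrial limit. They had at least 2000 UMIs where shares were counted and at least 1000 UMIs where CPM were summed. Doublets were kept, as the rule removes none. In an alternative the highest Scrublet scores were removed at 0.8% per 1000 barcodes, which took 17 of 250 *Gpnmb*-high barcodes labelled CD40 KO and 125 of 1524 in WT.

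Named genes were *Cd40*, the markers, the 15 highest and lowest ratios of each comparison at 50 CPM or more (high over low ranked by the smaller ratio of both libraries), the 3 highest and lowest members of each of 27 lists at 10 CPM or more, and the lipid-associated list. The ranking left out genes of the Y chromosome, *Xist* and *Tsix*, mitochondrial, ribosomal protein, immunoglobulin and haemoglobin genes, and those without a proper name. *Met*, *Nr1h3*, *Mertk*, *Olr1*, *Ctsc*, *F7* and the ratios compared between populations were chosen after their values were seen. Promoter windows came from a RefSeq table.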

Additional observations from a re-analysis of the deposited data

Results flagged for a closer look

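*Gpnmb*-high barcodes were also found in data the rule sets aside. Among barcodes of 1000 to 4999 UMIs that met the other limits, 14.4% (106 of 737) were *Gpnmb*-high in the library labelled CD40 KO and 21.4% (111 of 520) in WT. In such shallow barcodes very few *Gpnmb* UMIs are enough to reach 0.05%. Whether these shares lie above background was not tested. Among barcodes under the *Malat1* minimum, 13.8% (170 of 1230) were *Gpnmb*-high in the library labelled CD40 KO and 50.8% (835 of 1643) in WT. Neutrophil-like barcodes of 1000 UMIs or more had *Gpnmb* at 16.5 CPM in the KO-labelled library and 24.2 CPM in WT. After thinning to 2000 UMIs, *Gpnmb* had a UMI in 0 of 16 neutrophil-like barcodes labelled CD40 KO and in 8.20% of 61 in WT.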

How the results depend on the processing

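No paired analysis was possible because each genotype had 1 library. The share of *Gpnmb*-high barcodes was lower in the library labelled CD40 KO than in WT under all 9 alternatives run: 19.9% and 43.8% with *Gpnmb* at 0.025%, 3.20% and 15.2% at 0.1%, 10.6% and 36.2% with no exclusions. In WT it was 35.6% at 10000 UMIs or more and 34.0% without the *Malat1* minimum. Counts of CD40 KO over WT were 610 higher and 401 lower when barcodes were thinned to 5000 UMIs, 172 and 47 at 50 CPM, 871 and 694 at 1.3-fold, and 93 and 17 at 2-fold. Those lower were 320 with equal depth bands, 283 with equal *Gpnmb* bands, 316 with *Gpnmb* at 0.1% and 292 at 5 CPM. *Gpnmb*-high over *Gpnmb*-low counts in the KO-labelled library were 338 higher when thinned, 78 higher and 94 lower at 50 CPM, 469 and 789 at 1.3-fold, and 46 and 69 at 2-fold. In WT they were 136 and 264 when thinned, 138 and 264 against macrophages under 0.025% *Gpnmb*, 35 and 56 at 50 CPM, 227 and 470 at 1.3-fold, and 23 and 28 at 2-fold. Other CPM and fold limits change the number of genes counted by construction; for the rest the cause was not tested. For the named genes 830 of 888 CD40 KO over WT values stayed past 1.5-fold in the same direction and 57 did not. *Ccl5* reversed, to −0.25 with *Gpnmb* at 0.1%. High over low, 316 of 330 values in the KO-labelled library and 260 of 260 in WT stayed past 1.5-fold. Leaving out barcodes past a limit for another cell type, an alternative chosen after seeing the data, gave 351 higher and 170 lower for CD40 KO over WT.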
